A study of Mus musculus with 26 samples.

Results

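The transcriptomes of mouse ESCs that relied on CTCF lacking zinc finger 1 (ESC-ΔZF1) were compared with those of ESCs that relied on full-length CTCF (ESC-WT). All libraries that the labels give for these groups entered the comparison, 2 for ESC-WT and 2 for ESC-ΔZF1, which is 4 of the 26 RNA-seq libraries of the series. The other libraries were 4 of neural progenitor cells (NPCs) from the same lines and 18 of parental E14 cells and RNA truncation lines. Each of the 55291 genes listed was considered, and the 16641 that passed a filter on low counts were tested.

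Both rescue lines descend from ES-E14TG2a mouse ESCs. In each, both endogenous CTCF alleles carry an N-terminal mAID-eGFP degron tag, and an mCherry reporter sits at the motor neuron gene Mnx1. Both lines also hold a mutant form of the F-box protein OsTIR1, heterozygous at Rosa26. This mutant form recognises the degron once 5-Ph-IAA is present. A doxycycline-inducible Flag-Halo-tagged CTCF, either WT or ΔZF1, was placed at the Tigre locus. ESC-WT and ESC-ΔZF1 were both treated for 24 h with 1 µM 5-Ph-IAA, which removes the endogenous protein, and 1 µg/ml doxycycline, which turns on the rescue protein. Each rescue protein was carried by 1 clonal line, so the effect of the ΔZF1 protein and any other difference between the lines cannot be told apart. The cells were grown on gelatin with LIF and the inhibitors CHIR99021 and PD0325901, which hold mouse ESCs in the naive state. The study describes its replicates as biological, but nothing in the sources used here says how the libraries of a line were separated. P values therefore measure the spread between libraries. That spread was estimated over all 8 libraries of the rescue lines, those of NPCs included.

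CTCF is a zinc finger protein that binds DNA at a conserved motif and halts loop-extruding cohesin, and the anchors of many chromatin loops are paired CTCF sites. Its central zinc fingers read the DNA motif, whereas the outer zinc finger 1 binds RNA. Loops and domain boundaries set by CTCF separate genes from enhancers or bring them together, as at the Hox clusters and the clustered protocadherins.

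Counts on genes came to 6425179 and 15408396 in ESC-WT and to 13614646 and 14629697 in ESC-ΔZF1, so the first ESC-WT library was the shallowest of the 4. Pluripotency genes were expressed in all of them. Nanog, a core pluripotency factor, had normalized counts of 23535 and 23359 in ESC-WT and 25005 and 23802 in ESC-ΔZF1. Normalized counts are counts scaled to a common effective library size. None of the 10 core pluripotency genes tested was dysregulated, with a median log2 fold change of 0.07 (ESC-ΔZF1 relative to ESC-WT throughout). Pou5f1 (0.23), Sox2 (-0.08) and Sall4 (0.11) were among them. The Y-linked genes Ddx3y, Uty, Kdm5d and Eif2s3y together had 0 to 2 counts in each of the 8 libraries of the rescue lines and 294 to 1625 in the 18 parental and truncation libraries. Gm21742, a predicted gene placed on the Y chromosome and looked up after its values were seen, did have counts, at 67.4 and 64.4 normalized counts in ESC-WT and 131 and 164 in ESC-ΔZF1 (1.17).

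The question was which genes differ when CTCF lacks zinc finger 1. A gene was called dysregulated when its adjusted P value in edgeR's quasi-likelihood F test did not exceed 0.05 and its log2 fold change reached 0.5 up or down. By this rule 601 genes were dysregulated, which is 3.61% of the genes tested. Of these, 214 (1.29% of genes tested) were up-regulated and 387 (2.33%) were down-regulated in ESC-ΔZF1. In all 601 genes the libraries of the groups did not overlap. Among all genes tested off chromosome 11, 29.6% were higher and 26% lower without overlap. On chromosome 11, 74.9% were lower without overlap. Protein-coding genes made up 582 of the 601, where 84.5% of all genes tested were protein coding. The 2 directions differed in where their genes lay. The down-regulated genes included 227 on chromosome 11, which is 58.7% of them, whereas none of the up-regulated genes lay there. The log2 fold changes are those of 4 ESC libraries, while the spread was estimated over the 8 rescue libraries. With any 1 of the 4 left out, few genes passed the test. All 601 kept their sign, which the lack of overlap all but fixes in advance. Between 562 and 587 kept a change of 0.5 or more in their direction. The 3 genes that passed without the second ESC-WT library were Hoxa10, Elob and Pkp2. At an adjusted P value of at most 0.01, 52 genes were dysregulated.

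Chromosome 11 was lower as a whole in ESC-ΔZF1. The median log2 fold change of its 1334 genes tested was -0.46, a level 0.728 times that of ESC-WT, and 227 of them (17%) were down-regulated. Of the genes tested on this chromosome, 89.2% had a log2 fold change below 0, including 963 genes that were not called. The quartiles lay at -0.63 and -0.25. On the other 18 autosomes the median was -0.01 to 0.05, and between 1.23% and 3.54% of their genes were dysregulated. On the X chromosome 4.61% of genes were dysregulated and the median was -0.02.

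**Figure D1:**
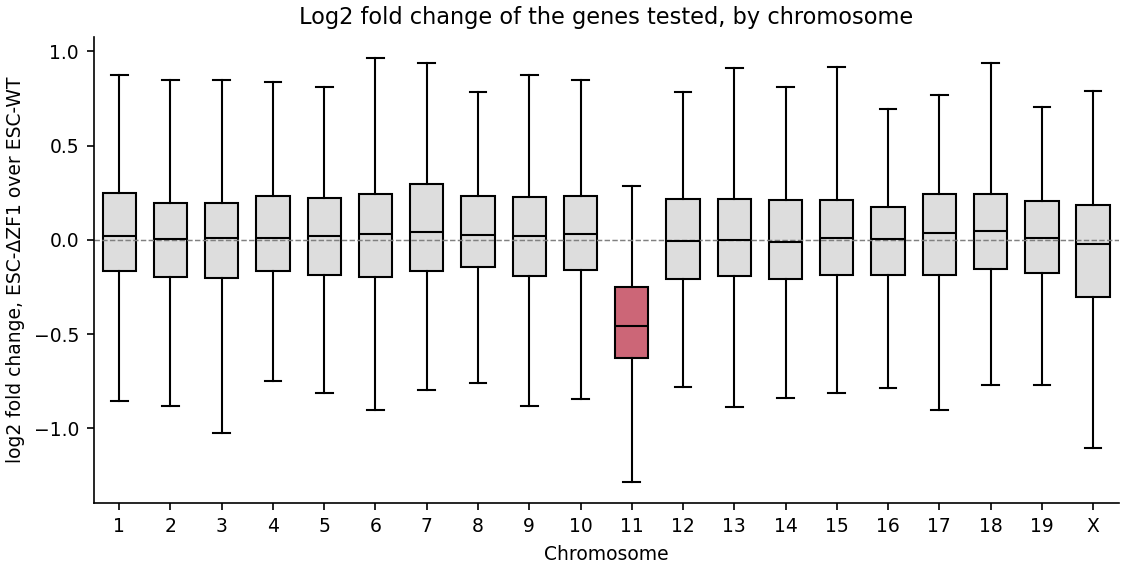
Log2 fold change of the genes tested (ESC-ΔZF1 relative to ESC-WT, vertical axis) for each chromosome (horizontal axis), with boxes at the quartiles, a line at the median and whiskers at the 5 and 95 percentiles. The box of chromosome 11 (coloured) lies below 0 at a median of -0.46, while those of the other autosomes have medians of -0.01 to 0.05.

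The shift was of like size in every pairing of the libraries. The median of chromosome 11 less that of the other autosomes was -0.46 for the first ESC-ΔZF1 library against either ESC-WT library, and -0.48 for the second ESC-ΔZF1 library against either. Between libraries of the same line this difference was 0.00 for ESC-WT and 0.02 for ESC-ΔZF1. The SD of the 4 pair values was 0.01, but the pairs share libraries, so it is not a spread of independent replicates. ESC-ΔZF1 was lower without overlap between the groups for 74.9% of the genes on chromosome 11. Off chromosome 11 this held for 26% of genes, and 29.6% were higher without overlap.

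The shift ran along the full length of the chromosome. In 13 bins of 10 Mb with 23 to 182 genes each, the median log2 fold change lay between -0.52 and -0.39. The largest share of down-regulated genes, 23.9%, was in the first 10 Mb (22 of 92 genes), and the smallest, 8.70%, in the following bin, which held 23 genes. No bin had a median near that of the other autosomes.

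**Figure D2:**
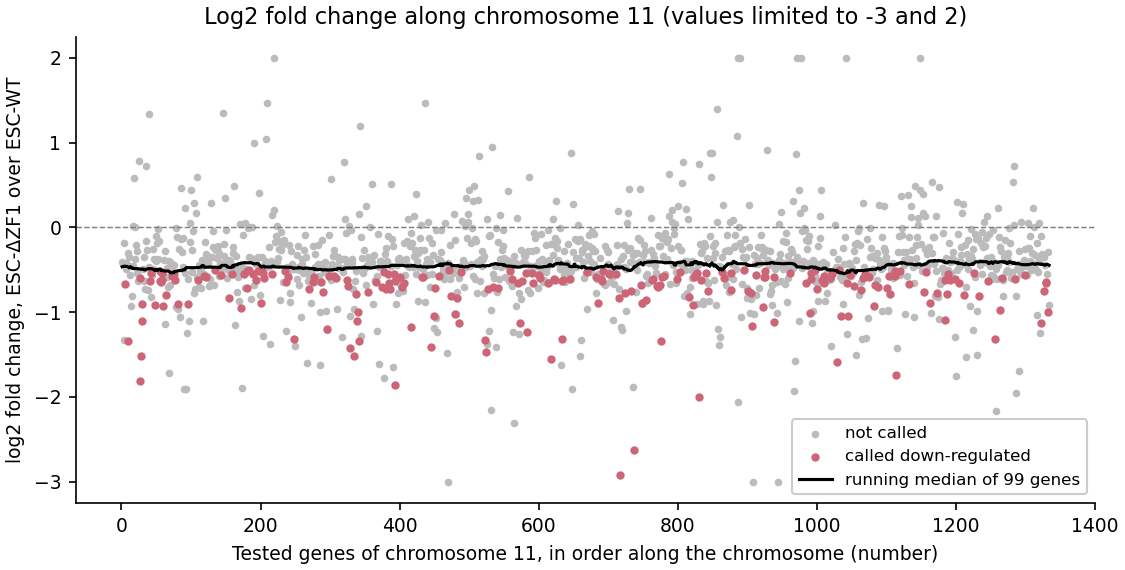
Log2 fold change (vertical axis, values beyond -3 and 2 drawn at those limits) of each gene tested on chromosome 11 in the order of their starts (horizontal axis), with the running median of 99 genes as a line. The line stays below 0 from end to end, and the medians of 10-Mb bins lie between -0.52 and -0.39.

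Of the 2 lines, ESC-WT was the one that stood apart from the parental cells on chromosome 11. In ESC-WT, chromosome 11 held 12.9% and 12.8% of the counts on autosomes. In ESC-ΔZF1 it held 9.64% and 9.66%. The share in the 18 libraries of parental E14 cells and truncation lines was 8.40% to 9.19%, below both rescue lines and nearer to ESC-ΔZF1. NPCs made from the same lines kept the split, with 12.2% and 12% in NPC-WT and 9.12% and 9.05% in NPC-ΔZF1.

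**Figure D3:**
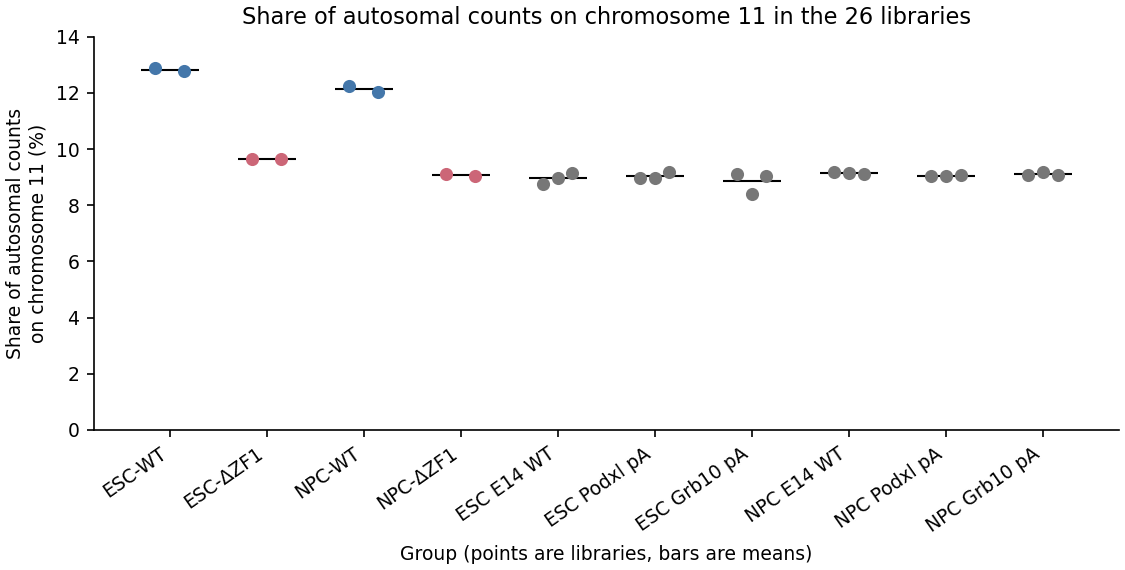
Share of the counts on autosomes that fell on chromosome 11 (vertical axis, percent) in each of the 26 libraries, by group (horizontal axis), with 1 point for each library. The 4 libraries of ESC-WT and NPC-WT lie between 12% and 12.9%, above the ΔZF1 libraries at 9.05% to 9.66% and the 18 others at 8.40% to 9.19%.

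Gene by gene, the same comparison was made against the 3 libraries of untreated parental E14 ESCs, over 7622 genes with at least 50 counts in each of these, 645 of them on chromosome 11. The parental libraries come from another count table and were not exposed to 5-Ph-IAA or doxycycline, so their levels were set beside those of the rescue lines as CPM, counts scaled to a fixed library total, without a test. Relative to the other autosomes, chromosome 11 was higher than in parental ESCs by a median of 0.50 and 0.53 on the log2 scale in ESC-WT. In ESC-ΔZF1 it was higher by 0.05 and 0.04. The other autosomes lay between -0.13 and 0.15 in these 4 libraries. Whether the DNA copy number of chromosome 11 differs between the lines was not tested.

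The largest falls on chromosome 11 exceeded its median. Among those with at least 100 normalized counts on average, Gm12258 had 156 and 147 normalized counts in ESC-WT and 50.5 and 54.8 in ESC-ΔZF1 (-1.52). Dlg4, the postsynaptic scaffold PSD-95, had 261 and 219 against 92.0 and 96.5 (-1.33). The histone variant gene H3f4 (-1.34), the phosphodiesterase gene Gdpd1 (-1.34), the actin regulator Rflnb (-1.31) and the collagen prolyl hydroxylase P4ha2 (-1.20) completed the 6 largest falls. In all 6 both ESC-WT libraries were above both ESC-ΔZF1 libraries, as was required of the falls named here.

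When the median of chromosome 11 was taken into the offsets of the model, so that its genes were tested against the shift rather than against 0, 14 of its genes passed. In that fit 5 were lower than their chromosome: Mmp28, a matrix metalloprotease (-2.17 beyond the median), Gm12258 (-1.06), Dlg4 (-0.87), Rflnb (-0.86) and Tex19.1 (-0.67). Another 9 were higher: the guidance ligand Slit3 (1.45), the calcium pump Atp2a3 (1.06), the noncoding RNA Tug1 (1.04), Adcy1 (0.92), Pitpnc1 (0.84), Mapt (0.72), Jup (0.69), Sec14l1 (0.52) and Grb10 (0.51). Grb10, an imprinted adaptor gene whose RNA the study truncated in other lines, had 1582 and 1497 normalized counts in ESC-WT and 1544 and 1640 in ESC-ΔZF1. Its groups overlapped, and its log2 fold change was 0.05. Tug1 rose from 1488 and 1666 to 2237 and 2497 in level, without overlap, but its log2 fold change of 0.58 did not pass the test against 0 (adjusted P = 0.104, edgeR).

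Off chromosome 11, 374 genes were dysregulated among 15307 tested. Up-regulated genes numbered 214 (1.4%) and down-regulated genes 160 (1.05%). Their median log2 fold changes were 0.92 and -1.05, with a median standard error of 0.19 over the 374 genes, and 175 of them changed by at least 1 on the log2 scale. Positions are those of GENCODE M21 on GRCm38. The genes named below are the 12 leading rises and the 12 leading falls. They were taken from dysregulated genes that average 100 normalized counts or more and whose groups do not overlap. Fitting without chromosome 11 left 245 dysregulated genes, of which 123 were up-regulated, and taking its median into the offsets left 124 up-regulated and 100 down-regulated genes off the chromosome.

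The largest rises were in genes of unlike function. Hoxa10 (chr6:52231197-52240854), a posterior homeobox factor, rose most and is described with its cluster below. Klhdc7a, a kelch-domain gene at chr4:139960220-139968026, had 40.4 and 46.0 normalized counts in ESC-WT and 295 and 286 in ESC-ΔZF1 (log2 fold change 2.72, SE 0.23, adjusted P = 0.00144, edgeR). Elob, which encodes elongin B, a subunit of the elongin complex and of cullin ubiquitin ligases, had 332 and 344 against 1045 and 1029 (1.61, SE 0.12, adjusted P = 0.000438, edgeR). Elob lies at chr17:23824738-23829136 and overlaps the splicing gene Srrm2, and counting did not use strand. Apoe, the lipid carrier apolipoprotein E, had 819 and 753 against 2280 and 2169 (1.5). All ESC-ΔZF1 libraries were above all ESC-WT libraries in each of these, as the rule for naming them required.

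Nckap1l, which encodes the haematopoietic WAVE complex subunit HEM1, had 143 and 113 normalized counts in ESC-WT and 430 and 431 in ESC-ΔZF1 (1.79). Aoah, a leukocyte hydrolase of bacterial lipid A, had 53.9 and 40.3 against 154 and 172 (1.84). Adcy2, an adenylyl cyclase, had 53.9 and 50.6 against 167 and 133 (1.53). Rapgef3, the cyclic AMP-activated exchange factor Epac1, had 113 and 113 against 300.5 and 312 (1.44). Sntb1, a syntrophin (1.65), Cemip, a hyaluronan-degrading protein (1.55), and Pou4f2, a POU factor of retinal ganglion cells (1.48), also rose. Gm10800 (1.58) has near-identical predicted copies among which reads could be split, and its value is uncertain.

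The largest falls were likewise in genes of unlike function. Vsir, the immune checkpoint receptor VISTA, had 243 and 206 normalized counts in ESC-WT and 33.7 and 51.2 in ESC-ΔZF1 (log2 fold change -2.37, SE 0.22, adjusted P = 0.00250, edgeR). Vsir lies at chr10:60346851-60372684 within Cdh23, and its reads and those of that gene were not told apart by strand. Myh6, cardiac alpha myosin heavy chain, had 154 and 178 against 42.7 and 38.1 (-2.05). Smoc1 (chr12:81026808-81186414), a secreted calcium-binding matrix protein, had 590 and 658 against 193 and 173 (-1.78). Pkp2 (chr16:16213318-16272712), the desmosomal plakophilin 2, was the most abundant of these genes, with 2981 and 3084 against 1107 and 1164 (-1.42, SE 0.10, adjusted P = 0.000438, edgeR). None of these groups overlapped, which the rule for naming them required.

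Arrb1, the signalling adaptor beta-arrestin 1, had 536 and 499 normalized counts in ESC-WT and 141 and 179 in ESC-ΔZF1 (-1.69). Hpcal4, a neuronal calcium sensor, had 340 and 351 against 110 and 84.6 (-1.83). Sh3bgrl, on the X chromosome, had 1523 and 1345 against 418 and 482 (-1.67). The carboxypeptidase gene Cpn1 (-1.57), the Mediator paralog gene Med12l (-1.42) and the homeobox gene Hdx (-1.41) fell as well. Clu, which encodes the chaperone clusterin, spread more than the others within ESC-WT, at 253 and 140 against 62.2 and 72.7 (-1.47, SE 0.28). Xlr3a (-1.58) has near-identical copies on the X chromosome, which makes its value uncertain.

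**Figure D4:**
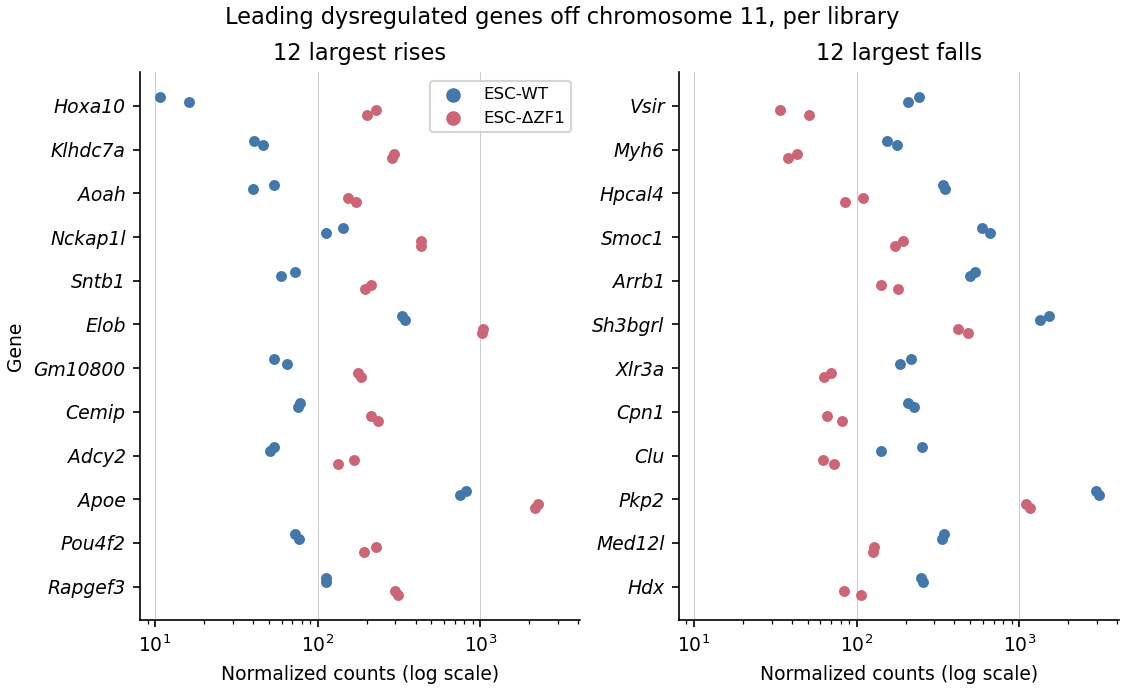
Normalized counts (logarithmic axis) of the 12 leading rises and 12 leading falls off chromosome 11, with 1 point for each library of ESC-WT and ESC-ΔZF1. The libraries of the groups lie apart in every gene shown, as the choice of genes required. Clu has the widest spread within ESC-WT, at 253 and 140.

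These genes were then set beside parental E14 ESCs. Of the 12 leading falls, the parental level was below both rescue lines in 8, between them in 3 and above both in 1. Vsir had 0.303 ± 0.269 CPM (SD, n = 3) in parental ESCs, against 14 and 11.6 in ESC-WT and 1.91 and 2.94 in ESC-ΔZF1. Smoc1 had 4.85 ± 0.357 CPM (SD, n = 3) in parental ESCs, against 34.1 and 37.1 in ESC-WT and 10.9 and 9.91 in ESC-ΔZF1. In both, the ESC-WT libraries were the furthest from the parental level.

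Of the 12 leading rises, the parental level was between the lines in 6, below both in 3 and above both in 3. Elob had 105 ± 16.7 CPM (SD, n = 3) in parental ESCs, above ESC-ΔZF1 at 59.3 and 59.1 and ESC-WT at 19 and 19.4. Over all 214 up-regulated genes, the parental level was nearer to ESC-WT in 97 and nearer to ESC-ΔZF1 in 117. Over the 160 down-regulated genes off chromosome 11, it was nearer to ESC-WT in 59 and nearer to ESC-ΔZF1 in 101. Among the 227 down-regulated genes on chromosome 11 the counts were 70 and 157. The median log2 difference from parental ESCs of the 160 genes was 0.80 in ESC-WT and -0.15 in ESC-ΔZF1. For the 214 up-regulated genes it was -0.57 in ESC-WT and 0.36 in ESC-ΔZF1, so both lines departed from the parental level there. For the 227 genes on chromosome 11 it was 0.64 and -0.05. Shares over all genes tested are not given for these counts.

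The Hoxa cluster was the longest run of neighbouring genes that rose together. Hox genes encode homeobox factors that pattern the body axis. In ESCs they are mostly repressed by Polycomb, and CTCF sites within the cluster separate its anterior from its posterior genes. Of the 16 genes listed at the cluster, 13 were tested, 6 were up-regulated and none was down-regulated, with a median log2 fold change of 1.66 where that of all genes off chromosome 11 was 0.02. In 12 of the 13 both ESC-ΔZF1 libraries were above both ESC-WT libraries. Of all genes tested off chromosome 11, 1.4% were up-regulated and 29.6% were higher without overlap. The noncoding gene Halr1 beside the cluster rose too, from 369 and 400.3 to 707 and 737 (0.90), and with the 6 Hoxa genes it formed a run of 7 dysregulated genes, all up-regulated, at chr6:52102949-52245810. Starts within 200 kb of each other joined 3 or more dysregulated genes off chromosome 11 in only 2 other places, and in both the directions were mixed: Rec8, Ltb4r2 and Nynrin on chromosome 14, and Zfp185, Pnma5, Xlr4a and Xlr3a on the X chromosome.

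The promoters of the 3 Hoxa genes with the largest rises are shown because these genes moved together in a cluster with known CTCF sites. The sequences are from RefSeq on GRCm38.p6, each from 250 bases before to 50 bases after a transcript start, written on the minus strand of the genes, and Hoxa10 has 2 starts. Capitals mark AGGGGGC, the G-rich stretch of the CTCF motif, searched on both strands.

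Hoxa9 (chr6:52227321-52227620): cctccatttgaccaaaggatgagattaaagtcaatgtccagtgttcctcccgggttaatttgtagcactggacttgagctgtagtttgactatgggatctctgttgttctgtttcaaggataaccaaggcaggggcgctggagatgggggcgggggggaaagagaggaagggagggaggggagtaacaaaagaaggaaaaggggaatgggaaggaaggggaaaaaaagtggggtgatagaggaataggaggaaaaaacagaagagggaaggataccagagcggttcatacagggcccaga

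Hoxa10, upstream start (chr6:52240805-52241104): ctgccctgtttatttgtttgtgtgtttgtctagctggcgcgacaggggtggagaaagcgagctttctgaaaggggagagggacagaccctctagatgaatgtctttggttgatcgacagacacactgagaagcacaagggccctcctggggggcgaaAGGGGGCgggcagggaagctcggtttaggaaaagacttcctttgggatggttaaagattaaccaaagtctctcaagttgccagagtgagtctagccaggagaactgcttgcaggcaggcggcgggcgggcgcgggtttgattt

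Hoxa10, downstream start (chr6:52234890-52235189): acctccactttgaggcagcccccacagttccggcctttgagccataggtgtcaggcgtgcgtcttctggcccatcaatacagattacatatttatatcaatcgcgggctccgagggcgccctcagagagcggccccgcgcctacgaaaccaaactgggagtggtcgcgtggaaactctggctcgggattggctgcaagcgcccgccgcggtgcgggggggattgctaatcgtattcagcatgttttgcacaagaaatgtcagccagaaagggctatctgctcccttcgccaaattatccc

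Hoxa11 (chr6:52245761-52246060): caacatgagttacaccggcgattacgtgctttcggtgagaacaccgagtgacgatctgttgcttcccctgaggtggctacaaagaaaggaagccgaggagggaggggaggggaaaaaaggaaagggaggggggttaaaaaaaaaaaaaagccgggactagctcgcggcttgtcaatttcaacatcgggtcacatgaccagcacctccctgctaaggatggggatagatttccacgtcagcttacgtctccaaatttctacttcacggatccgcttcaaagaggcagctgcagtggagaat

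These letters were found in the upstream Hoxa10 window and not in the other 3. They are common: 10.6% of all 32851 RefSeq promoter windows held them. Of tested genes with a window, 19.2% held them in at least 1 window, as did 30 of 157 up-regulated genes and 23 of 127 down-regulated genes off chromosome 11.

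The genes are given in the order of the chromosome. Hoxa2 was near the limit of detection, with 13.5 and 9.20 normalized counts in ESC-WT and 20.7 and 13.1 in ESC-ΔZF1 (0.66, not dysregulated). Hoxa3 had 18.9 and 15 against 71.2 and 72.7 (2.14). Hoxa4 had 8.09 and 5.75 against 19.4 and 19, and its value of 1.55 did not pass the test (adjusted P = 0.120, edgeR). From Hoxa3 on, both ESC-ΔZF1 libraries were above both ESC-WT libraries in every gene tested.

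Hoxa9 and Hoxa10 rose most among genes with counts in every library. Hoxa5 had 10.8 and 12.7 normalized counts in ESC-WT and 71.2 and 70.3 in ESC-ΔZF1 (2.54). Hoxa7 had 40.4 and 24.2 against 153 and 150.1 (2.34). Hoxa9 had 13.5 and 6.90 against 105 and 131 (3.69, SE 0.37). Hoxa10 had 10.8 and 16.1 against 229 and 202 (3.90, SE 0.28, adjusted P = 0.000438, edgeR). Before normalization, the counts of Hoxa10 were 4 and 14 reads in ESC-WT and 177 and 170 in ESC-ΔZF1. All 4 genes were low in ESC-WT, and their groups did not overlap. Hoxa3 overlaps Hoxa4, Hoxa5 and Hoxa6 in the annotation, so their counts are not wholly separate.

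Hoxa11 had no count in either ESC-WT library and 28.5 and 25 normalized counts in ESC-ΔZF1, from 43 reads in all. With a floor of 3 counts over the ESC-WT group, this is at least 11.1-fold higher. Hoxa6 was not tested, with 0 counts in ESC-WT and 4 in ESC-ΔZF1. Hoxa13, at the posterior end, had 8.09 and 11.5 against 15.5 and 13.1 (0.46), and Evx1 beyond it had 8.09 and 6.90 against 19.4 and 19 (1.38), neither of which passed the test. Without a single library, 1 to 3 genes of the cluster passed the test, and Hoxa10 was among them each time.

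In parental ESCs, Hoxa10 lay between the rescue lines. It had 3.26 ± 1.28 CPM (SD, n = 3) there, above 0.623 and 0.909 in ESC-WT and below 13 and 11.6 in ESC-ΔZF1. Hoxa9 had 1.05 ± 0.423 CPM (SD, n = 3), near 0.778 and 0.389 in ESC-WT and below 5.95 and 7.52 in ESC-ΔZF1. Hoxa11 had 0 counts in all 3 parental libraries, as in ESC-WT. The other Hox cluster listed, Hoxb, lies on chromosome 11: none of its 10 genes tested was dysregulated, and their median was -0.21. Of the 29 Polycomb genes tested, whose products repress Hox genes, none was dysregulated and the median was 0.03. Of the 7 that lie on chromosome 11, Suz12, a core subunit of Polycomb repressive complex 2, had a log2 fold change of -0.64 and did not pass the test (adjusted P = 0.0779, edgeR).

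Ctcf itself was counted higher in ESC-ΔZF1. It had 9914 and 10179 normalized counts in ESC-WT and 15168 and 14660 in ESC-ΔZF1 (log2 fold change 0.57, SE 0.09, adjusted P = 0.0161, edgeR). In CPM, parental ESCs had 229 ± 9.08 (SD, n = 3), ESC-WT 572 and 574, and ESC-ΔZF1 860.2 and 841. Counts per gene add the endogenous and the rescue RNA together and do not show whether zinc finger 1 is present, so they do not check the labels.

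The partners of CTCF gave no call. Of 20 genes of CTCF and cohesin tested, only Ctcf was dysregulated, and the median was 0.05. The cohesin ring genes Rad21 (0.01), Smc1a (0.17) and Smc3 (0.07) and the SA subunits Stag1 (0.33) and Stag2 (0.20) were not dysregulated. Rad21 had 7709 and 7260 normalized counts in ESC-WT and 7697 and 7414 in ESC-ΔZF1, so its groups overlapped. Ctcfl, the germline paralog of CTCF, had 132 and 109 against 49.2 and 61.9, a log2 fold change of -1.09 that did not pass the test (adjusted P = 0.0806, edgeR).

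The longer CTCF motif was looked for in promoters of dysregulated genes. The core searched was CCA, NN, AG, NN and GGC in 1 unbroken run, where N is any base, on both strands of the RefSeq windows, and the G-rich stretch above can overlap it. Among all windows 797 of 32851 (2.43%) held a match, and among tested genes with a window 394 of 11703 (3.37%). Up-regulated genes had it in 7 of 157 (4.46%), down-regulated genes off chromosome 11 in 3 of 127 (2.36%) and those on chromosome 11 in 6 of 187 (3.21%). The shares were close to that of the genes tested, and a match is not evidence of binding.

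Of the 10 dysregulated genes off chromosome 11 with a match, the 4 with the largest changes are shown, picked after their values were seen. Each line gives 30 bases on the strand of the gene on GRCm38.p6, with the match in capitals, which is in reverse complement for Foxd1 and Sh3tc1.

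Foxd1 (chr13:98354224-98354253, plus strand): acaaggtccGCCCTCTTCTGGactcagccc

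Fam189a1 (chr7:65156731-65156760, minus strand): cgactcggcCCAGGAGGAGGCaccaacgcg

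Epha1 (chr6:42373432-42373461, minus strand): tagcaacacCCACTAGGCGGCgccttcagt

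Sh3tc1 (chr5:35740046-35740075, minus strand): gcctgttctGCCGCCTCCTGGggcctgaga

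Foxd1, a forkhead factor, had 18.9 and 16.1 normalized counts in ESC-WT and 47.9 and 54.8 in ESC-ΔZF1 (1.58). Fam189a1 had 32.3 and 40.3 against 110 and 96.5 (1.46), and Sh3tc1 had 426 and 465 against 923 and 908 (1.03). Epha1, an ephrin receptor, fell from 259 and 236 to 95.8 and 114 (-1.22). The groups did not overlap in any of the 4.

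Lists of genes by function and cell type are described next by their calls, beside the 1.29% of all genes tested that were up-regulated and the 2.33% that were down-regulated. Members that did not overlap between the groups are counted too, and off chromosome 11 this held for 29.6% of all genes in the higher and 26% in the lower direction. With 1 library left out, calls within these lists were at most 1 in a direction, in the leukocyte and histone lists, and 0 in the others. Genes that mark the pluripotent state gave few calls. Of 16 naive pluripotency genes tested, none was up-regulated and 1 was down-regulated, with a median of 0.08. The exception was Dppa3, or Stella, a maternal factor of the early embryo, with 102 and 100.1 normalized counts in ESC-WT and 31.1 and 33.4 in ESC-ΔZF1 (-1.64). Parental ESCs had 0.441 ± 0.0636 CPM (SD, n = 3) of Dppa3, below both lines. Tfcp2l1, a naive transcription factor, had 18160 and 18024 against 25875 and 24656, and its log2 fold change of 0.48 fell short of the cutoff on fold although it passed that on significance (adjusted P = 0.0275, edgeR). Of 13 formative and primed epiblast genes tested, 1 was down-regulated: Lef1, a Wnt-responsive factor, with 51.2 and 54.1 against 24.6 and 26.2 (-1.06).

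The 2-cell-like genes, which mark a rare state of ESC cultures, gave 0 calls among 14 tested. Their median was 0.42, and 8 were higher without overlap, where 29.6% of genes off chromosome 11 were. Zscan4a had 108 and 159.9 normalized counts in ESC-WT and 328 and 337 in ESC-ΔZF1 (1.26, adjusted P = 0.0537, edgeR). Zscan4 genes are near-identical copies, and reads may be split among them. In bulk RNA, a change in the number of cells of a type and a change in RNA per cell cannot be told apart. With only the 4 ESC libraries in the fit, 4 genes of this list passed.

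Markers of early lineages moved in a few single genes. Of 25 primitive endoderm genes tested, 3 were up-regulated, with a median of 0.03: Sox7, an endoderm factor at 10.8 and 10.4 normalized counts in ESC-WT and 38.9 and 46.5 in ESC-ΔZF1 (2.01), Apoe, and the laminin gene Lamc1 (0.52). Some members varied as much within a line as between lines. Dab2, an endocytic adaptor, had 456 and 176 against 158 and 235, and Cubn, an endocytic receptor, had 555 and 167 against 154 and 353. Of 15 mesoderm genes tested, Cdx1, a caudal-type homeobox factor, rose from 871 and 927 to 2321 and 2043 (1.28) and the T-box gene Eomes from 194 and 207 to 379.5 and 426 (1.00). The median of the list was 0.17.

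In 12 neural progenitor genes tested, Sox1 was the only call, at 119 and 97.8 normalized counts in ESC-WT and 214 and 193 in ESC-ΔZF1 (0.94), and the median was -0.05. Of 12 trophectoderm genes tested, Tfap2a rose (0.91) and the X-linked homeobox gene Esx1 fell (-1.03). The epithelial keratins of this list were uneven between replicates. Krt18 had 1658 and 785 in ESC-WT and 791 and 1240 in ESC-ΔZF1. The fibroblast list gave 1 call of 10 tested, the fibronectin gene Fn1 (0.64).

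Leukocyte genes gave calls in both directions. Of the 18 listed, 9 were tested, and 3 rose (Aoah, Nckap1l and Laptm5, a lysosomal membrane protein at 663 and 707 against 1583 and 1454, 1.14) while Vsir fell. Of the other members listed, Ptprc (CD45) and Cd48 had 0 counts in all 4 libraries. Others had reads without a call. Spi1 had 21.6 and 46.0 normalized counts in ESC-WT and 36.3 and 44.1 in ESC-ΔZF1 (0.14). Cd74 had 94.3 and 109 against 64.8 and 63.1 (-0.69).

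Among genes that are silenced by DNA methylation and first used in the germ line, most were lower in ESC-ΔZF1. Of 21 tested, 4 were down-regulated and 1 was up-regulated, 16 were lower without overlap (26% of all genes off chromosome 11 were), and the median was -0.62, or -0.59 without the member on chromosome 11. Tex19.1, a germline and placental gene that restrains retrotransposons, fell from 4432 and 4430 to 2109 and 1956 (-1.12), and it lies on chromosome 11. Mael, of the piRNA pathway, fell from 372 and 370.4 to 184 and 216 (-0.89). Slc25a31, a testis ADP/ATP carrier (-1.24), and Xlr3a (-1.58) were the others. Rpl10l, an autosomal retrogene of a ribosomal protein used in spermatogenesis, rose from 787 and 827 to 1975 and 1924 (1.27). Members without a call included Ddx4 (-0.52), Dazl (-0.17) and Sycp3 (-0.12).

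The enzymes of DNA methylation themselves gave no call among 12 tested, with a median of 0.11. Dnmt3a had 1965 and 1926 normalized counts in ESC-WT and 1615 and 1478 in ESC-ΔZF1 (-0.33), and Dnmt3b had 2264 and 2056 against 2690 and 2454 (0.25). Imprinted genes, many of which are insulated by CTCF, gave 2 calls among 36 tested, with a median of 0.06. Plagl1, a paternally expressed zinc finger gene, rose from 1685 and 1712 to 2650 and 2762 (0.67), and Ndn, paternally expressed in the Prader-Willi region, fell from 239.9 and 265 to 155 and 131 (-0.83).

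Clustered protocadherins, whose promoter choice depends on CTCF, were weakly expressed. Of 57 listed, 19 passed the filter, all of them in the gamma cluster, and none was dysregulated. The median was 0.80, and 13 were higher without overlap, beside 29.6% of genes off chromosome 11. Their log2 fold changes ran from -0.37 in Pcdhgc4 to 2.09 in Pcdhga3. Members of the cluster share their last exons, so their counts are not separate. The lowest adjusted P value of the list was that of Pcdhga8 (1.46, adjusted P = 0.0645, edgeR).

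Genes of the actin cytoskeleton and targets of the coactivator YAP rose in part. Of 33 tested, 7 were up-regulated and none was down-regulated, with a median of 0.16. Flna, the actin crosslinker filamin A, had 8987 and 8991 normalized counts in ESC-WT and 17880 and 17005 in ESC-ΔZF1 (0.96). Fstl1, a secreted glycoprotein, had 1175 and 1105 against 2211 and 2288 (0.98). Myl9, a myosin light chain, had 45.8 and 48.3 against 114 and 117 (1.28). Cited2 (1.15), Acta2 (1.10), Myof (0.94) and the calponin gene Cnn2 (0.63) rose as well. The YAP targets Ccn1 (0.09), Ccn2 (0.36) and Ankrd1 (-0.48) and the cytoskeletal genes Vim (0.13) and Zyx (-0.15) were not dysregulated.

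The amino acid response, driven by the factor ATF4, gave 3 rises and no fall among 25 genes tested, with a median of 0.23 and 18 genes higher without overlap (29.6% of genes off chromosome 11 were). Cth, which makes cysteine from cystathionine, had 655 and 789 normalized counts in ESC-WT and 1670 and 1590 in ESC-ΔZF1 (1.16). Atf5 had 359 and 367 against 846 and 737 (1.12), and the alanine transaminase gene Gpt2 had 2000 and 2150 against 3459 and 3316 (0.71). Atf4 (0.32), Asns (0.03), Chac1 (0.46) and Trib3 (0.14) were not dysregulated. Parental ESCs had 276 ± 49.3 CPM (SD, n = 3) of Cth, above ESC-ΔZF1 at 94.7 and 91.3 and ESC-WT at 37.8 and 44.5.

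Other stress and metabolic lists had at most 1 call each. Gdf15 (1.17) was the call among 20 p53 targets tested, where Cdkn1a (0.15) and Mdm2 (0.12) were not dysregulated. The metallothionein Mt1 (0.97), with 736 and 772 against 1558 and 1394, was the call among 12 metallothionein and heat shock genes. The 25 hypoxia and glycolysis genes, 17 immediate early genes, 14 genes of ERK feedback and FGF signalling, 17 retinoic acid response genes and 7 mitochondrial genes tested gave none. Of 17 Wnt targets tested, Cdx1 rose, and Lef1, Tcf7 (-0.59) and Znrf3 (-0.51) fell, the last pair on chromosome 11.

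In large complexes, most calls lay on chromosome 11. Of 39 proteasome genes tested, 5 were down-regulated and none was up-regulated, and all 5 were among the 8 on chromosome 11: Psmb6 (-0.71), Psmd12 (-0.67), Psmb3 (-0.58), Psmc5 (-0.57) and Psme3 (-0.55). Psmb6, a catalytic core subunit, had 5302 and 5393 normalized counts in ESC-WT and 3362 and 3158 in ESC-ΔZF1. Off the chromosome the median of the complex was -0.05. Over all 39 genes, 25 were lower and 2 higher without overlap. Among all genes tested, 26% were lower without overlap off chromosome 11 and 74.9% on it, and 29.6% were higher off it. Of 81 ribosomal protein genes tested, 1 was down-regulated, Rpl26 on chromosome 11 (-0.57), and the median of those elsewhere was 0.07. Histone genes gave 4 falls among 60 tested: H2bu2 (-1.10) and H2bu1-ps (-1.0) on chromosome 11, and the neighbours H2bc1 (-1.05) and H2ac1 (-1.0) on chromosome 13.

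NPCs of the same lines were set beside the ESCs. They were collected on day 2 of differentiation and share no libraries with the ESCs. NPC-WT and NPC-ΔZF1 were both treated, like the ESCs, for 24 h with 1 µM 5-Ph-IAA and 1 µg/ml doxycycline. They come from the same 2 clones, so the effect of the protein and other differences between the clones cannot be told apart in either cell type. NPC-ΔZF1 had 1196 up-regulated (7.19%) and 1740 down-regulated genes (10.5%) relative to NPC-WT. Of the 214 genes up-regulated in ESC-ΔZF1, 81 were up-regulated in NPC-ΔZF1 (37.9% of the ESC genes and 6.87% of the NPC genes off chromosome 11), and 10 were down-regulated there. Of the 160 down-regulated off chromosome 11, 71 were down-regulated in NPC-ΔZF1 (44.4% and 6.12%) and 10 were up-regulated. Of the 227 on chromosome 11, 142 were down-regulated in both cell types (62.6% and 24.5%). The background differs by chromosome. On chromosome 11, NPC-ΔZF1 had 579 down-regulated genes among the 1334 tested. Off it, 1179 were up-regulated and 1161 down-regulated among 15307.

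Among named genes, Hoxa10 (3.90 in ESCs and 2.65 in NPCs), Smoc1 (-1.78 and -1.84), Apoe (1.5 and 1.48) and Med12l (-1.42 and -1.43) were dysregulated in both. Sox7 had 2.01 in ESCs and 2.03 in NPCs. Cpn1 was down-regulated in ESCs (-1.57) and up-regulated in NPCs (1.43), and Lef1 likewise (-1.06 and 0.86). Chromosome 11 had a median of -0.57 in NPCs, where the other 18 autosomes lay between -0.04 and 0.15.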

How the data were processed

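RNA-seq of the CTCF rescue lines (WT and ΔZF1, each as ESCs and as NPCs, with 2 libraries a group) was analysed from a table of counts, with a second table of parental and truncation lines for levels. Per the paper's methods, total RNA was depleted of rRNA, made into directional paired-end libraries, aligned to mm10 with STAR and counted on genes with featureCounts. The authors deposited whole-number counts, not normalized, counted without strand per the labels. The gene annotation used for counting is not given in the sources used here. The table of the truncation lines held 3 columns of no sample, which were not used.

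Symbols were placed with GENCODE M21 (53186 of 55291 matched, 96.2%) and RefSeq (1085 more), and 106 symbols of more than 1 gene are uncertain. The 8 rescue libraries were fitted with edgeR 4.0.16 in R 4.3.3 (TMM, filterByExpr, a mean for each group, no term for replicates). The quasi-likelihood F test was used with Benjamini-Hochberg adjustment. The standard error is the size of the log2 fold change divided by the square root of F. TMM factors were 0.963 to 1.02, and the residual degrees of freedom 4. Library totals in the ESC groups ranged from 6425179 to 15408396, and floors (3 counts over a group) cover counting error only. Values relative to parental ESCs use log2 CPM with 0.5 added to each count.

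Alternatives were DESeq2 1.42.0, RLE normalization, other filters, only the ESC libraries, a replicate block, each library left out, chromosome 11 left out or its median in the offsets, and stricter cutoffs. The scripts were tested on simulated data of 16641 genes with 200 changed. Genes were named by rule: CTCF and core cohesin, the 12 largest rises and falls off chromosome 11 and the 6 at each end of chromosome 11 at an average of 100 normalized counts or more, up to 4 called members of each list, and the Hoxa cluster. The rises and falls, but not the 6 highest on chromosome 11, also had to be dysregulated without overlap between the groups. Of each list of cell type markers, the 4 most abundant members in ESC-WT were named too. Other genes in the text, such as Suz12, Ctcfl, Mmp28, Halr1 and further list members, fall outside this rule. Their values were known when they were picked. The comparison, its gene lists and the rule were chosen with earlier results of these data known. The ChIP-seq, CLIP-seq and Micro-C data were not analysed here, and some genes are not reported here.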

Additional observations from a re-analysis of the deposited data

Results flagged for a closer look

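For 15 named genes the effect of ΔZF1 in NPCs differed from that in ESCs in edgeR's test of the difference between the effects, at an adjusted P value of at most 0.05. Over all genes tested 449 differed. Most named genes were chosen for a large change in ESCs. That choice favours a smaller or opposite effect in NPCs, so the 15 cannot be set against the 449. The differences below are the log2 fold change in NPCs less that in ESCs. No explanation for them was tested.

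The effect had opposite signs in 6 of these genes. Cpn1 had the largest difference, 2.99 (SE 0.32, adjusted P = 0.00237, edgeR), from 208 and 227 normalized counts in ESC-WT and 66.1 and 81.0 in ESC-ΔZF1 to 57.5 and 90.9 in NPC-WT and 198 and 187 in NPC-ΔZF1. Lef1 differed by 1.92, with 123 and 120 in NPC-WT and 230 and 213 in NPC-ΔZF1. Adcy2 differed by -2.20, Myl9 by -2.03, Acta2 by -1.62 and Atp2a3 by -1.47. Acta2 was at 796 and 823 in NPC-WT and 619 and 514 in NPC-ΔZF1, above its ESC levels.

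In 7 genes the effect had the same sign and was smaller in NPCs. Klhdc7a differed by -1.71, and its NPC levels were 26.2 and 36.4 in NPC-WT and 67.1 and 54.5 in NPC-ΔZF1. Elob differed by -0.96, with 941 and 864 against 1446 and 1392 in NPCs. Hoxa3 differed by -1.95, with 168 and 174 against 181 and 210.2 in NPCs, where both lines were above the ESC-ΔZF1 level. Vsir differed by 1.82, Hpcal4 by 1.46, Sh3bgrl by 1.56 and Pkp2 by 0.90. The log2 fold change of Sh3bgrl in NPCs was only -0.10, and its NPC groups overlapped, so its sign there is uncertain.

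In 2 genes the effect was larger in NPCs. Cemip differed by 1.10, reaching 659 and 657 in NPC-ΔZF1 from 111 and 97.0 in NPC-WT. Lamc1 differed by 1.17, with 7283 and 8952 in NPC-WT and 26563 and 25928 in NPC-ΔZF1.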

How the results depend on the processing

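The number of dysregulated genes depended on the fit, while directions mostly did not. Against 601 genes (214 up-regulated, 387 down-regulated, 374 off chromosome 11), no filter on low counts gave 1088 (435, 653 and 767) and only the 4 ESC libraries in the fit gave 1601 (607, 994 and 1174). With chromosome 11 left out there were 245 (123 and 122), and with its median in the offsets 238 (133 and 105, 224 off the chromosome), so that off chromosome 11 the share of up-regulated genes went from 57.2% to 50.2% and 55.4% (over all calls, from 35.6% to 50.2% and 55.9%). A cutoff of 0.01 on adjusted P gave 52 (26 and 26, 42 off the chromosome), and one of 1 on the log2 fold change gave 214 (89 and 125, 175). DESeq2 gave 680 genes, RLE normalization 571 and at least 10 counts in every library 559. With 1 library left out, 3 to 15 genes passed (2 to 7 up-regulated, 1 to 8 down-regulated, 3 to 15 off chromosome 11). Such a fit leaves a group with 1 library, which is assumed to vary like the others. The fewest, 3, were found without the second ESC-WT library. The replicate block gave 409 genes (146 up-regulated, 263 down-regulated), 398 of them among the 601. The numbers did not pair the libraries, as the replicate differences of ESC-WT and ESC-ΔZF1 correlated at 0.02 over genes.

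The median of chromosome 11 less that of the other autosomes was -0.48, with -0.38 in DESeq2 and -0.38 without a filter on low counts, and it ranged from -0.48 to -0.46 with 1 library left out. Of the 89 named genes with a log2 fold change, the sign changed only in Rad21, at -0.0061 with chromosome 11 left out, and from -0.014 to 0.068 with 1 library left out (below 0 without the second ESC-WT or the first ESC-ΔZF1 library). In DESeq2, Lef1 and Znrf3 were no longer called, Hoxa11 had no adjusted P value, and Slit3 and Tug1 were called. The filter of at least 10 counts in every library removed all called Hoxa genes but Hoxa7, which stayed called. Under the replicate block, the genes lost included Lef1, Lamc1, Sox1, Tfap2a, Ndn, Acta2 and Znrf3. Elob, Hoxa10 and Pkp2 passed with any library left out. Genes below about 100 normalized counts rest on few reads in the shallowest library, the first of ESC-WT.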
